A study of Homo sapiens with 6 samples.

Results

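The arrays described here are the 2 that carry RNA of Lovo cells, a line grown from a human colorectal cancer, of 6 arrays in the series. One sample came from cells stably transfected with a vector (pSUPER gfp-neo) that expresses a short hairpin RNA (shRNA) to knock down TGFB1, the other from cells with a control shRNA in the same vector, so both had been through transfection and selection. Both samples were chosen by the sample titles, which name the line and the shRNA, and every probe named as a human miRNA was read, 1891 probes for 1890 names. The other 4 arrays hold the same pair of shRNAs in the colorectal lines SW620 and HT29. Each condition has 1 array per line, so a Lovo difference has no replicate check, and no p-value is given for it. The labels do not say whether a transfected line was 1 clone or a pool.

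The source names and the stated design match the titles, whereas 2 other label fields give the knockdown vector and the knockdown genotype for the Lovo control sample as well. The direction of every difference below therefore rests on the titles. TGFB1 is a protein-coding gene with no probe on a miRNA array, so its own level was not measured.

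TGF-β1, the product of TGFB1, is a secreted growth factor that signals through a receptor kinase and SMAD proteins. In epithelial cells it halts growth and can drive epithelial-mesenchymal transition, in which cells lose their junctions and become motile. A miRNA guides a repressor complex to messenger RNAs through its seed, bases 2 to 8 from its 5′ end. The miR-200 family represses ZEB1 and ZEB2, transcription factors that turn off epithelial genes and that TGF-β signalling turns on, while miR-21, miR-199a and miR-214 are described as raised by TGF-β in several tissues.

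Signals below are the median over the 4 spots of a probe of foreground minus background intensity, and a probe counts as detected at a signal of at least 50. Differences are knockdown minus control on the log2 scale after normalisation, with the SE over spots, which is technical error only. For some probes the 4 spots fell into pairs, as for miR-302e in control, at 375 and 377 against 1337 and 1277. The SE treats the 4 spots as independent and is too small where they pair in this way. The knockdown array had a median background of 86 and 542 detected human probes, the control array a background of 146 and 481 detected probes. The other 4 arrays had backgrounds of 138 to 202 and 398 to 502 detected probes. The mean correlation with the remaining arrays was 0.633 for the Lovo knockdown array, the lowest of the 6, and 0.812 for the Lovo control array, the highest. Median signals of the spike control probes were 342.75 and 492.25 on the Lovo arrays. What part these array properties have in the differences was not tested.

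Of the 1891 probes, 408 were detected on both Lovo arrays, 134 on the knockdown array only, 73 on the control array only and 1276 on neither. Among the 408, 25 miRNAs (6.13%) were at least 2-fold higher in knockdown and 26 (6.37%) at least 2-fold lower, and the remaining 357 lay within 2-fold. The split was 52 higher and 17 lower with arrays scaled on spike controls, and 17 and 44 without normalisation between arrays. The corresponding shares were 6.25% and 8.15% of 368 miRNAs in SW620, and 5.03% and 6.92% of 318 in HT29, so about as large a share passed 2-fold in each line. The median of all 408 Lovo differences was 0.09, with quartiles of -0.33 and 0.48. Only 8 miRNAs passed 4-fold, 5 higher and 3 lower.

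**Figure D1:**
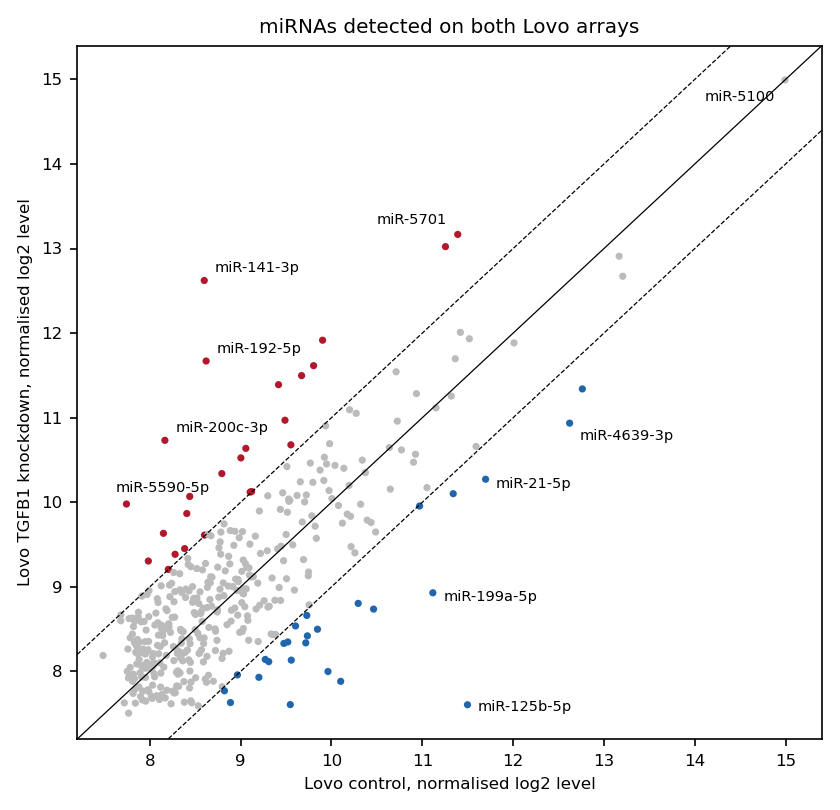
Normalised log2 level of the 408 miRNAs detected on both Lovo arrays, control on the x axis and TGFB1 knockdown on the y axis. The solid line marks equal levels and the dashed lines 2-fold, red points are the 25 at least 2-fold higher in knockdown and blue points the 26 at least 2-fold lower. miR-141-3p lies farthest above the lines and miR-125b-5p farthest below.

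The 3 highest differences belonged to miRNAs of epithelial cells: miR-141-3p and miR-200c-3p of the miR-200 family, and miR-192-5p of the gut epithelium. The miR-200 family has 2 seeds that differ in 1 base, and its members are shown because the family did not lie together in Lovo. The mature sequences are those of RefSeq on GRCh38.p14, with the seed in capitals.
miR-141-3p: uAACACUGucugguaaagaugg
miR-200a-3p: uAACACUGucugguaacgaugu
miR-200b-3p: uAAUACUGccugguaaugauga
miR-200c-3p: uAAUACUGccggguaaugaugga
miR-429: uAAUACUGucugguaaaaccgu
miR-192-5p: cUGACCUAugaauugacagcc
miR-194-5p: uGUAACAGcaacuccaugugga
Positions counted from 1 at the 5′ end, miR-141-3p differs from miR-200a-3p by A17C and G22U, and miR-200c-3p from miR-200b-3p by G11U and G22A, all outside the seed.

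The signal of miR-141-3p was 4531 on the knockdown array and 245.5 on the control array, a difference of 4.02 ± 0.22. Its single spots lay at 3749 to 5904 in knockdown and at 145 to 347 in control, with no overlap. It was the sixth brightest human probe of the knockdown array, with 1.91% of the summed human signal. On the other 4 arrays its signals were all below 0, so a knockdown difference could be measured in Lovo alone. The signal of its partner arm miR-141-5p was -12.0 in knockdown and -65.0 in control, not detected.

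MIR200C and MIR141 are neighbours on the plus strand at chr12:6963699-6964191. Of the miRNA from MIR200C, miR-200c-3p, the signals were 1127 in knockdown and 123.5 in control, a difference of 2.57 ± 0.14. Its 4 knockdown spots (1065 to 1304) all lay above its 4 control spots (85 to 173). Outside Lovo it was detected on the SW620 control array only, at 81. Both miRNAs of the chromosome 12 pair were thus at least 2-fold higher in knockdown.

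The members on chromosome 1, at chr1:1167104-1169087, had smaller differences. For miR-200a-3p the signals were 251.5 and 63.5, a difference of 0.99 ± 0.73, just under 2-fold and with an SE nearly as large as the difference. For miR-200b-3p they were 159 and 201.5 (-0.16 ± 0.30), the one member with a lower value in knockdown (0.09 with spike control scaling). Signals of miR-429 were 192.5 in knockdown and -36.0 in control, where it was not detected, and it was at least 1.89-fold higher in knockdown. Members with the same seed therefore differed: 4.02 against 0.99 for miR-141-3p and miR-200a-3p, and 2.57 against -0.16 for miR-200c-3p and miR-200b-3p. Summed over the 5 members the signal was 6261 in knockdown and 634 in control, and the family's median difference was 1.30. List medians here and below run over all members, detected or not; over the 4 members detected on both arrays the median was 1.78, beside 0.09 over all 408 miRNAs so detected.

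miR-192-5p is abundant in gut epithelium and is induced by p53. Its signals were 1912.5 in knockdown and 242 in control, a difference of 3.05 ± 0.19, with spots of 1643 to 2014 against 158 to 366. It was not detected on any SW620 or HT29 array. Its hairpin lies on the minus strand of chromosome 11 beside MIR194-2, and miR-194-5p, another gut epithelial miRNA, had signals of 251 in knockdown and -19.5 in control, at least 2.38-fold higher in knockdown. miR-375, a miRNA of gut and endocrine cells, was detected on both arrays at 386 and 494 (-0.24 ± 0.44). Of the gut epithelial list, miR-215 and miR-203a were detected on neither Lovo array.

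Among the other leading probes, miR-5701 and miR-4787-5p were bright on both arrays. The signals of miR-5701 were 7153.5 in knockdown and 2751.5 in control (1.78 ± 0.30), and those of miR-4787-5p 7167.5 and 2423 (1.77 ± 0.12). Their spots did not overlap between the arrays, at 6933 to 8531 against 1674 to 3817 for miR-5701 and at 6156 to 8010 against 2134 to 2705 for miR-4787-5p. miR-5701 had the reverse order in the other lines, with signals of 2466.5 and 5328.5 in SW620 (-0.99) and 1801 and 6813 in HT29 (-0.90). The normalised difference of miR-4787-5p was above 0 there as well, at 1.14 in SW620 (4602.5 and 1685) and 0.87 in HT29, although its HT29 signals before normalisation, 3571 and 3892, have the other order.

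miR-485-3p, from the imprinted cluster at chr14:101022066-101066801, had signals of 1694.5 and 550 (1.97 ± 0.18) and was also higher in SW620 (1.28) and HT29 (0.35). Of the other miRNAs of that cluster detected on both arrays, miR-377-5p lay at 0.76, miR-495-5p at 0.40, miR-323a-3p at -0.48 and miR-382-3p, at the detection minimum with signals of 50.5 and 50, at -0.26, so its difference was not shared at that size. miR-5590-5p (698.5 and 58, 2.24 ± 0.41) had a control signal barely above the detection minimum. miR-660-5p had the smallest SE of the leading miRNAs that were higher, with signals of 736 and 190 and a difference of 1.63 ± 0.07. Its partner arm miR-660-3p was bright and nearly level before normalisation, at 2565 and 2769, with a normalised difference of 0.42.

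The rest of the 15 highest were miR-4708-3p (2.01), miR-3960 (1.83), miR-371b-5p (1.81), miR-4292 (1.58), miR-4285 (1.55), let-7a-2-3p (1.52) and miR-634 (1.48). Of these, miR-3960 had overlapping spots, at 1046 to 2565 in knockdown and 445 to 1384 in control. The other 10 of the 25 lay between 1.00 and 1.48. The median signal of the 25 was 1004.5 in knockdown and 279 in control, and in 2 of them the control signal was under 100.

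**Figure D2:**
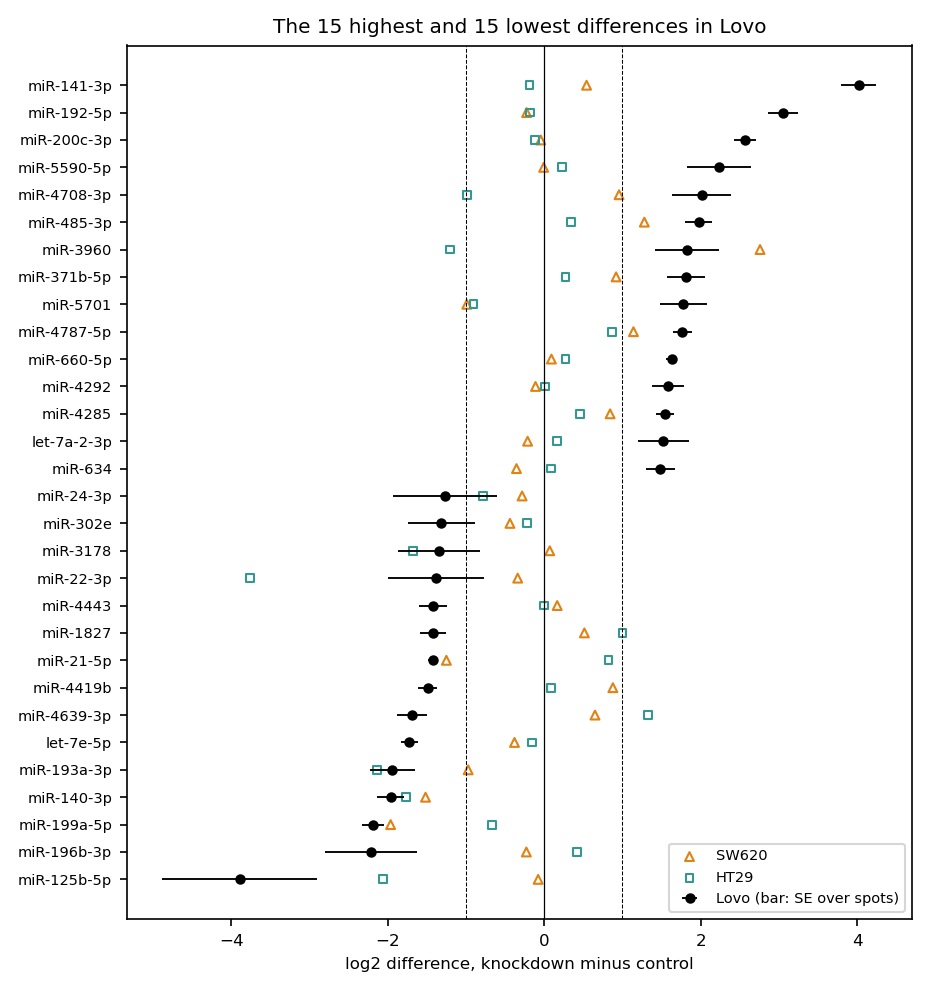
The 15 highest and 15 lowest differences among miRNAs detected on both Lovo arrays, as log2 difference (knockdown minus control) on the x axis. Black points are Lovo with the SE over 4 spots, open triangles SW620 and open squares HT29, and dashed lines mark 2-fold. For miR-192-5p, miR-200c-3p and miR-141-3p the other lines, which did not detect them on both arrays, lie between -0.22 and 0.54, while for miR-140-3p and miR-193a-3p they lie to the left with Lovo.

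The lowest difference was that of miR-125b-5p, a miRNA that targets p53 and several of its partners, and the largest bound in the same direction was that of let-7c. Both are shown with their relatives, because close sequences gave unequal differences.
miR-125a-5p: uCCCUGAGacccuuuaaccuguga
miR-125b-5p: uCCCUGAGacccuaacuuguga
let-7a-5p: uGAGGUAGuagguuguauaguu
let-7b-5p: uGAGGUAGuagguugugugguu
let-7c: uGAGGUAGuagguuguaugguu
let-7e-5p: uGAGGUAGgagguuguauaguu
The substitution from let-7c to let-7a-5p is G19A, that to let-7b-5p A17G, and let-7e-5p differs from let-7a-5p by U9G. How far each probe also binds near relatives of its target was not tested, so values of such close sequences are uncertain.

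The signal of miR-125b-5p was 61.5 in knockdown, close to the detection minimum, and 4426 in control, where it was the seventh brightest human probe (-3.89 ± 0.99). Its 4 control spots split into 7747 and 9609 against 596 and 1105, and its knockdown spots into 124 and 129 against -1 and -2. All control spots lay above all knockdown spots, but the size of the difference is poorly fixed. In SW620 the signals were 4016 and 5349.5 (-0.08) and in HT29 2232 and 11246.5 (-2.06), so the knockdown signal in Lovo was the lowest of the 6. miR-125a-5p, with the same seed, was level in Lovo at 323.5 and 358 (-0.10 ± 0.26).

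let-7c was bright on the control array (1315) and not detected on the knockdown array (24.5), and was at least 8.28-fold lower in knockdown. In SW620 its signals were 121.5 and 826.5 and in HT29 912.5 and 1454. let-7e-5p had signals of 271 and 1223 (-1.73 ± 0.11), with spots of 225 to 307 against 1107 to 1463. The other let-7 members detected on both arrays lay closer to 0, at -0.25 ± 0.79 for let-7a-5p, -0.54 ± 0.89 for let-7b-5p, -0.43 ± 0.83 for let-7g-5p and -0.54 ± 0.48 for let-7i-5p, and of these 4 only let-7i-5p had a difference above its SE. Of the 9 listed members of the family, which restrains RAS and MYC, 5 were detected on both arrays and all 5 were below 0, 1 of them by 2-fold (with spike control scaling let-7a-5p lay at 0.02). Of all 408 miRNAs detected on both arrays, 177 were below 0, and probes of such close sequences are not independent of each other. The summed signal of the 9 was 1444 in knockdown and 4713.5 in control, and the median over all 9 was -0.54. In the other lines that median was lower still, at -0.73 in SW620 and -1.16 in HT29. miR-4500, which shares the seed but is not in that list, lay at 0.61 ± 0.86, with signals of 495 and 600.5.

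Within 10000 bases, neighbours of let-7c and let-7e-5p in the genome did not share their values. let-7c lies beside miR-99a-5p at chr21:16539089-16539911, and miR-99a-5p had signals of 758.5 and 563 (0.65 ± 0.12). Farther along the same strand, outside that distance, lies MIR125B2 at chr21:16590253-16590274, a gene of miR-125b-5p, which had the lowest difference (-3.89). MIR125B1 on chromosome 11 yields the same mature sequence, so the probe cannot tell which gene its signal came from. let-7e-5p lies between miR-99b and miR-125a at chr19:51692612-51693339, and miR-99b-5p (-0.08) and miR-125a-5p (-0.10) were level while let-7e-5p was lower.

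Next lowest were miR-196b-3p (68.5 and 1136, -2.22 ± 0.59), from the HOXA cluster, and miR-199a-5p, a miRNA of mesenchymal cells. miR-199a-5p had signals of 322 and 2101 (-2.19 ± 0.14), with spots of 290 to 347 against 1841 to 2766. It was lower in SW620 as well (904.5 and 4334.5, -1.96) and less so in HT29 (1066.5 and 3095.5, -0.67). The signals of miR-140-3p, known from cartilage, were 113 and 869.5 in Lovo (-1.96 ± 0.17), 370.5 and 1325.5 in SW620 and 167.5 and 1393 in HT29, so that its knockdown signal was the lower one in every line.

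miR-193a-3p and miR-193b-3p share a seed and were unequal in Lovo, so both sequences are given.
miR-193a-3p: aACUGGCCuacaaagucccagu
miR-193b-3p: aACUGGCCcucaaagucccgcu
Their substitutions are U9C, A10U, A20G and G21C. Signals of miR-193a-3p were 54.5 and 643.5 (-1.94 ± 0.29) and those of miR-193b-3p 395 and 222.5 (0.70 ± 0.22). In the other lines miR-193a-3p lay at -0.97 in SW620 and -2.14 in HT29, and miR-193b-3p at -0.97 and -0.18. The 2 were thus level with each other in SW620.

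miR-21-5p, the miRNA most often reported as raised in solid tumours, had signals of 857 and 3170 (-1.42 ± 0.07), with spots of 794 to 886 against 2938 to 3552. It lay at -1.25 in SW620 and at 0.82 in HT29. The probe of its partner arm miR-21-3p went the other way, with signals of 264 and -30.0, at least 2.39-fold higher in knockdown. Among other bright probes, miR-4639-3p (1334 and 5885.5, -1.69 ± 0.19) and miR-4443 (1473 and 6041.5, -1.42 ± 0.18) were lower in Lovo knockdown, and miR-4639-3p was higher in that of SW620 (0.65) and HT29 (1.33).

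The rest of the 15 lowest were miR-4419b (-1.49), miR-1827 (-1.42), miR-22-3p (-1.38 ± 0.61), miR-3178 (-1.35), miR-302e (-1.31) and miR-24-3p (-1.27 ± 0.67). The spots of miR-24-3p overlapped, at 45 to 191 in knockdown and 83 to 1359 in control. In miR-22-3p 1 control spot of 2680 stood against 350 to 498 for the other 3. The other 11 of the 26 lay between -1.26 and -1.01. The median signal of the 26 was 178.5 in knockdown and 789.75 in control, and in 5 of them the knockdown signal was under 100.

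**Figure D3:**
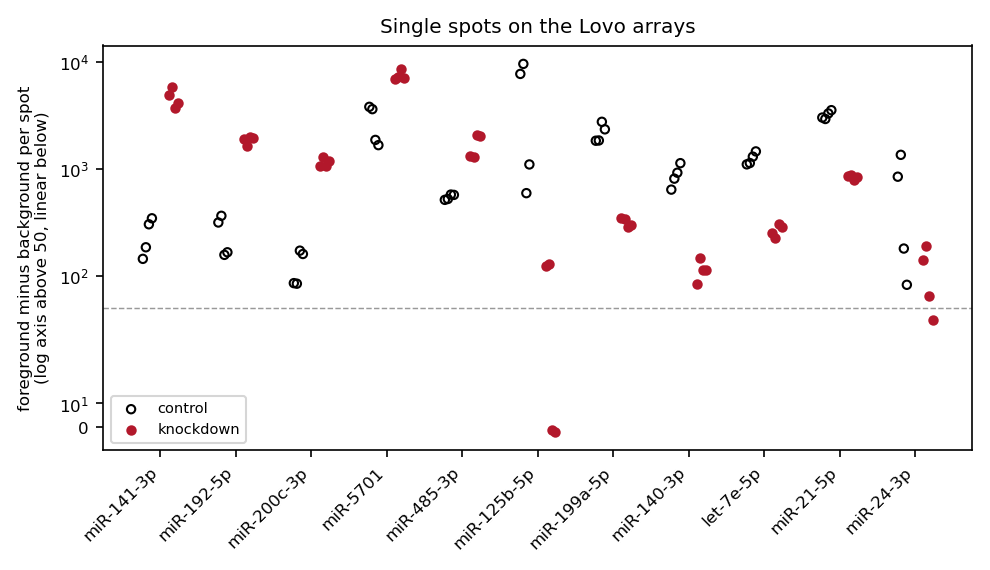
Foreground minus background of every single spot for 11 miRNAs on the Lovo arrays, on a log axis above 50 and a linear one below, with open circles for control and red points for knockdown. The dashed line is the detection minimum of 50. The spots are apart for all of these miRNAs except miR-24-3p, and those of miR-125b-5p spread most.

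Of the 30 miRNAs with the largest differences, 28 had spots that did not overlap between the arrays. These 30 were picked by their differences over the same spots, and overlap was not counted over all 408. Of the 51 past 2-fold, 50 had a difference above 2 spot SE, and 51 kept their sign under 6 ways of normalising the arrays, while 17 of the 25 and 16 of the 26 stayed past 2-fold under all of them. The 51 were chosen by their size under quantile normalisation, which is among these 6 ways. That choice largely set the counts of 50 and 51, and neither is given over all 408. Just inside the threshold were miR-224-3p (1.01), let-7d-3p (1.01) and miR-5587-3p (1.00), and, lower in knockdown, miR-5196-3p (-1.01), miR-1260b (-1.01) and miR-15a-3p (-1.05). Just outside were miR-200a-3p (0.99), miR-4445-5p (0.98) and miR-3191-5p (0.98), and, below 0, miR-4426 (-0.98), miR-205-3p (-0.97) and miR-3924 (-0.95).

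Among probes detected on the knockdown array only, the brightest reached a signal of 363 and the median was 94.5, and 6 of 134 were at least 2-fold higher when set against the lowest detected level of the control array. Among them were miR-21-3p, miR-194-5p, miR-3175 (at least 2.36-fold) and miR-27a-5p (at least 2.25-fold). The control levels of miR-4754 (353 and 32.5), miR-4750-5p (363 and 42.0), miR-1908 (297 and 32.5) and miR-4683 (252 and 12) lay above that lowest level after normalisation, so only their normalised differences are given, 1.37, 1.30, 1.23 and 1.07. Among the 73 detected on the control array only, 14 were at least 2-fold lower in knockdown by such a bound. They were led by let-7c, miR-130a-3p (638 in control, at least 3.44-fold) and miR-3074-3p (at least 3.41-fold). For miR-4775 (43.5 and 558) the normalised difference was -1.89, with a knockdown level above the lowest detected one. miR-25-3p (at least 3.07-fold), miR-302f (2.77-fold), miR-142-5p (2.59-fold) and miR-708-5p (2.43-fold) followed. Bounds are on the quantile-normalised scale and move with it: the difference of let-7c ran from -3.50 to -3.01 under 6 ways of normalising.

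The miRNAs described as raised by TGF-β were counted as a list of 15, drawn from work in other tissues. In Lovo 6 were detected on both arrays, of which miR-199a-5p, miR-21-5p and miR-24-3p were at least 2-fold lower in knockdown and miR-192-5p at least 2-fold higher, with miR-155-5p at 0.91 ± 0.36 and miR-23a-3p at 0.02 ± 0.82. Another 5 were detected on the control array only: miR-145-5p (at least 1.82-fold lower in knockdown), miR-214-3p (2.04-fold), miR-27a-3p (1.67-fold), miR-181a-5p (1.48-fold) and miR-181b-5p (70.0 in control and 48.5 in knockdown). miR-216a-5p was detected in knockdown only, at 62.5, and miR-143-3p, miR-217 and miR-494 on neither array. Of the 6 detected on both arrays 3 lay above 0 and 3 below, with a median of -0.63, beside 0.09 over all 408. The median over all 15 was -0.92, which is the value of miR-143-3p, and the summed signal was 3995 in knockdown and 7283.5 in control.

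The labels call the cells a colorectal cancer line, and epithelial markers were detected on both arrays. They were 4 of 5 miR-200 members in control and 5 of 5 in knockdown, and 2 and 3 of 5 gut epithelial miRNAs. Over all 1891 human probes 481 were detected in control and 542 in knockdown, which stands beside the marker counts here and below. The summed signal of the miR-200 family was 634 in control and 6261 in knockdown. That of the gut epithelial list was 736 and 2593.5. A list of mesenchymal miRNAs was counted as well. Of 8, 6 were detected in control and 4 in knockdown, with summed signals of 3252.5 and 793 and a median difference of -1.05, 2 of them (miR-199a-5p and miR-22-3p) past 2-fold. In this list miR-22-3p is not among the fibroblast and smooth muscle markers chosen for this report, so these counts, sums and median do not rest on markers alone. With the median over spots in place of the mean, miR-22-3p lay at -0.95, within 2-fold. The other members detected on both arrays were miR-10b-5p (-0.34) and miR-199b-5p, which was higher in knockdown (151 and 54, 0.51). miR-143-3p and the shared probe of miR-199a-3p and miR-199b-3p were detected on neither array. Fewer cells that express a miRNA and less of it per cell cannot be told apart in RNA from a whole culture.

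Of 8 blood cell miRNAs, 5 were detected in control and 3 in knockdown, with summed signals of 932.5 and 829. miR-142-3p and miR-142-5p were detected in control at 265 and 305.5 and not in knockdown, miR-150-5p, miR-486-5p and miR-155-5p were higher in knockdown (0.53, 0.34 and 0.91), and the red cell miRNAs miR-144-3p and miR-451a were not detected. Of 11 markers of muscle, liver and brain, 2 were detected in control and 4 in knockdown, with summed signals of 443.5 and 572. The part of other cell types in the differences was not tested.

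**Figure D4:**
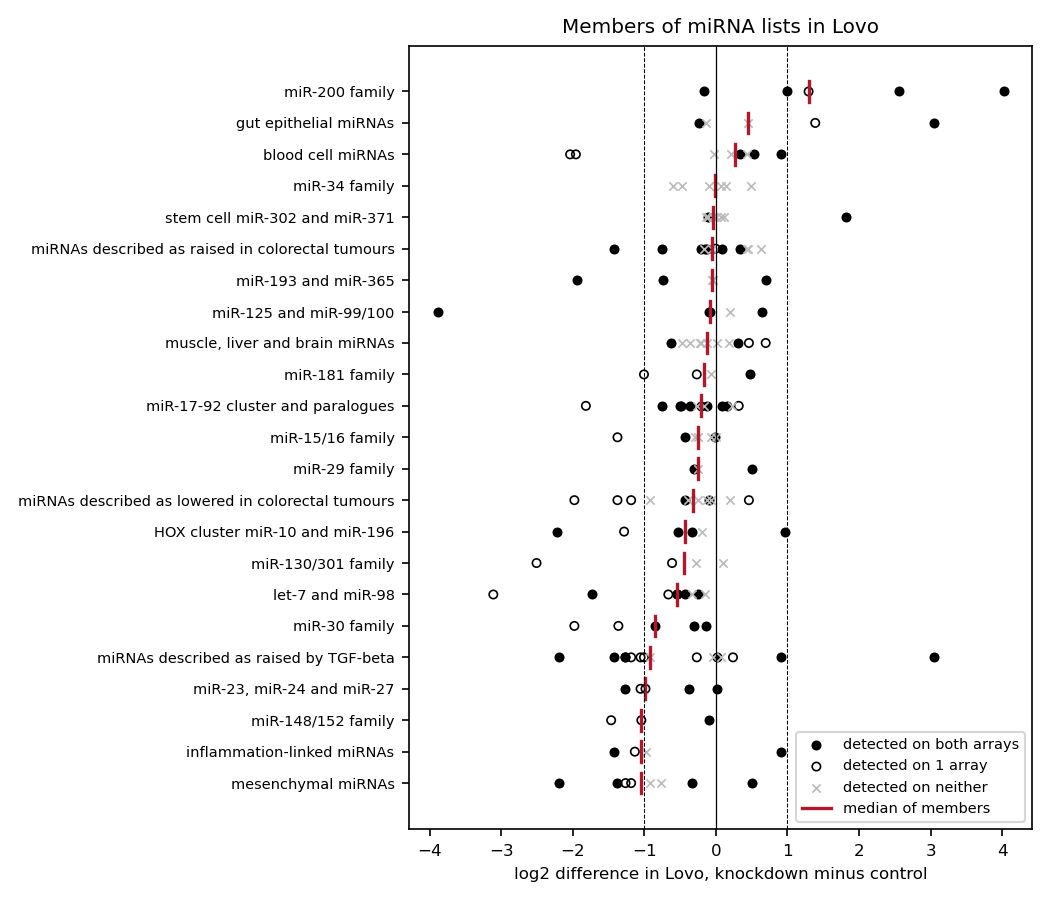
Members of 23 miRNA lists by their log2 difference in Lovo, knockdown minus control, on the x axis. Filled circles were detected on both arrays, open circles on 1 and crosses on neither, and red bars are the median over all members. The miR-200 family has the highest median (1.30) and the mesenchymal list the lowest (-1.05, followed closely by the inflammation-linked list).

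Other families were counted in the same way. The miR-17-92 cluster and its paralogues, which promote proliferation, had 8 of 13 members on both arrays, none past 2-fold, and a median of -0.20. From the cluster on chromosome 13, miR-20a-5p was the brightest at 2501 and 4578.5 (-0.13 ± 0.59), with miR-17-5p at -0.20 (0.05 with spike control scaling), miR-19a-3p at -0.36, miR-19b-3p at -0.50 and miR-92a-3p at -0.75. miR-25-3p, which shares its seed with miR-92a-3p, was detected in control only. The miR-30 family, which targets SNAI1, had a median of -0.85: miR-30c-5p was lower at 452 and 1080.5 (-0.85 ± 0.20), miR-30a-5p (-27.0 and 320.5) and miR-30e-5p (24.5 and 430.0) were detected in control only, and miR-30b-5p and miR-30d-5p lay at -0.31 and -0.14 (miR-30d-5p at 0.12 with spike control scaling). The miR-148 family, which targets DNMT1, had 3 members detected in control and 1 in knockdown (median -1.04).

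In these medians undetected members enter near background. They were -0.98 for miR-23, miR-24 and miR-27, -0.44 for the miR-130 family, -0.43 for the miR-10 and miR-196 miRNAs of the HOX clusters, -0.25 for the miR-29 family and -0.24 for the miR-15/16 family. They were -0.17 for the miR-181 family, -0.08 for miR-125 with miR-99/100, -0.06 for miR-193 with miR-365 and -0.04 for the stem cell miRNAs. With spike control scaling the median was above 0 for miR-125 with miR-99/100 (0.18), miR-193 with miR-365 (0.08), the stem cell miRNAs (0.14) and the muscle, liver and brain list (0.06). The inflammation-linked list of 4 had a median of -1.05 with miR-21-5p and miR-155-5p on opposite sides of 0. miRNAs described as raised in colorectal tumours had a median of -0.05 (0.10 with spike control scaling) and those described as lowered -0.32. None of the 6 listed members of the miR-34 family was detected, neither the miR-34 miRNAs, which p53 induces, nor miR-449a and miR-449b-5p. Lists overlap, since miR-21-5p, miR-199a-5p and miR-192-5p stand in more than 1.

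Each miRNA hairpin can yield 2 mature arms, cut from 1 precursor. In 53 hairpins of the RefSeq table each arm was detected on at least 1 Lovo array, and the arms had opposite signs in 28 of them and the same sign in 25. In 17 the arms were at least 2-fold apart, and the median gap was 0.75. Under 6 ways of normalising, the count of opposite signs ran from 21 to 28 and that of gaps of at least 2-fold from 17 to 19. With both arms detected on both arrays, 10 of 21 hairpins had opposite signs and 4 a gap of at least 2-fold. The hairpin of MIR27A, at chr19:13836440-13836517 on the minus strand, is shown as an example with its 5p and then its 3p arm in capitals.
MIR27A: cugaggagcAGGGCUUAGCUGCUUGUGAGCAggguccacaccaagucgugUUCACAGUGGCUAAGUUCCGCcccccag
The signal of miR-27a-5p was 245.5 in knockdown and 3.5 in control, that of miR-27a-3p 6.0 and 143.5, so each array detected a different arm.

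Similar splits were seen in MIR181A2, where miR-181a-2-3p was higher (417 and 75, 1.32) and miR-181a-5p was detected in control only, and in MIRLET7A2, where let-7a-2-3p was higher (1026 and 368.5) and let-7a-5p lay at 210.5 and 482.5. In MIRLET7D, let-7d-3p was higher (877.5 and 419) and let-7d-5p was detected in control only (96). In MIR25, miR-25-5p was near level (345.5 and 256.5, 0.36) while miR-25-3p was not detected on the knockdown array (11.5 and 416.5). The arms of MIR142 lay together, both detected in control only.

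**Figure D5:**
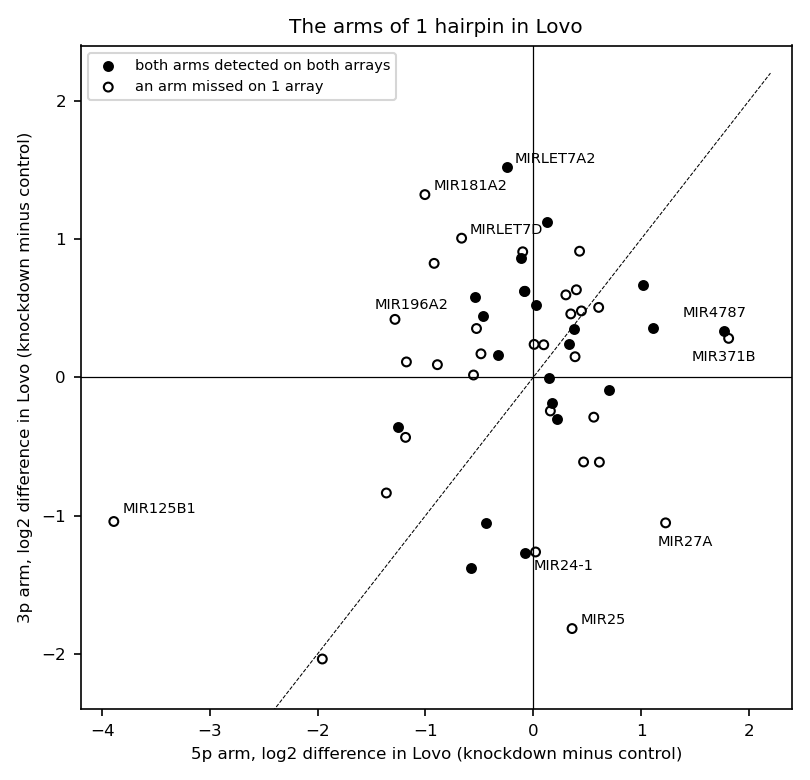
Log2 difference in Lovo (knockdown minus control) of the 5p arm on the x axis and of the 3p arm on the y axis, 1 point per hairpin for the 53 with each arm detected on at least 1 Lovo array. Filled points have both arms detected on both arrays, and the dashed line marks equal differences. In 28 of the 53 the arms have opposite signs, a count not set beside pairs from unrelated hairpins.

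Whether a difference was particular to Lovo was tested by limma, as the Lovo difference minus the mean of the SW620 and HT29 differences, with the line as a block and 1 residual degree of freedom. The lone Lovo pair is assumed there to vary as the others do. Of 570 miRNAs detected on at least 2 of 6 arrays, 0 (0.0%) were called at an adjusted p of 0.05. The smallest adjusted p was 0.744, and at an unadjusted p under 0.05 limma gave 23. The smallest p-values were those of miR-5701 (2.72 ± 0.31, limma SE), miR-192-5p (3.25 ± 0.45), miR-141-3p (3.85 ± 0.56) and miR-4639-3p (-2.68 ± 0.41), each at an adjusted p of 0.744 from limma. miR-200c-3p (2.65 ± 0.45, adjusted p = 0.810 from limma) and miR-4443 (-1.50 ± 0.27, adjusted p = 0.825) followed. No array of the other lines detected miR-192-5p or miR-141-3p, and 1 of 4 detected miR-200c-3p, so their contrast is set by the Lovo difference against background values and does not compare responses. The same holds for the 1 call made with median scaling, miR-141-3p (adjusted p = 0.0423 from limma). Over the 256 miRNAs detected on all 6 arrays 0 were called, the smallest adjusted p from limma being 0.197.

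The signs of the 51 miRNAs past 2-fold were set beside the other lines, which share no array with Lovo, counting in each line the miRNAs detected on both of its arrays. Of the 25 that were higher in Lovo, 18 were so detected in SW620, and 10 of these were above 0 there, 3 by 2-fold. In HT29 17 were detected and 14 were above 0, 1 by 2-fold. Of the 26 that were lower in Lovo, 25 were detected in SW620, with 14 below 0 and 5 by 2-fold, and 23 in HT29, with 11 below 0 and 4 by 2-fold. The counts by 2-fold stand beside the shares of all detected miRNAs past 2-fold in SW620 (6.25% higher and 8.15% lower) and HT29 (5.03% and 6.92%). For the counts above or below 0, the share over all detected miRNAs of each line is not given. Those sign counts therefore cannot show whether a response was shared. Past 2-fold in the other direction were 2 of the 25 and 2 of the 23 that were lower in Lovo, and, of those higher in Lovo, 0 in SW620 and 1 in HT29.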

How the data were processed

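Per the labels' protocols, total RNA was tagged with the dye Hy3 by ligation at the 3′ end and run on 1-colour miRNA arrays. The deposited raw table gives for 15840 spots per array, per the file headers, an intensity of the foreground and an intensity after background subtraction. Neither a scanner nor a background method is named in these sources. The deposited value table proved to be a ratio: each array's background-subtracted medians over spots were divided by a single factor (318.5 and 337 for Lovo), which held within 1% for 100% of the values. It is linear and uncentred, with column medians of 0.372 and 0.493, and the origin of the factor is unknown. Log2 values were computed here from the deposited intensities by normexp background correction (offset 50), log2, a mean over the spots of a probe and quantile normalisation of all 6 arrays (limma 3.58.1, R 4.3.3).

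A probe was detected where its median foreground minus background was at least 50. Within Lovo, miRNAs detected on both arrays were counted at 2-fold, with no test. The contrast against the other lines used lmFit and eBayes with a trend and Benjamini-Hochberg adjustment over 570 probes. Its code was tried on simulated data with the same noise for every probe and no line effect. That setting is unlike these data, so it does not show what size of difference could be called here. Intensities carry no counts; precision is limited by how few arrays there are.

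The text names the 15 highest and 15 lowest differences, 8 miRNAs detected on 1 array each way, the 10 brightest probes per array, the 3 nearest to the threshold on each side, the 6 smallest contrast p-values, list members, partner arms, hairpin neighbours and miRNAs sharing a seed. Members, lists and rule were chosen with earlier results of these data known. Of 408 detected miRNAs, 349 matched RefSeq sequences, GRCh38.p14; let-7c was matched through its gene symbol, and neighbouring hairpins were those within 10000 bases on 1 strand. Alternatives covered background correction, normalisation, arrays normalised together, detection minimum, averaging of spots, the value table, the fold threshold, the variance model and the filter.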

Additional observations from a re-analysis of the deposited data

Results flagged for a closer look

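A few miRNAs past 2-fold in Lovo were past 2-fold the other way in another line, and the difference from that single line was not tested. The limma contrast of Lovo against the mean of both other lines called none of the 5. miR-3960 lay at 1.83 in Lovo and -1.20 in HT29, and at 2.76 in SW620 (contrast 1.05 ± 1.94, adjusted p = 0.967 from limma). miR-4329 lay at -1.07 in Lovo and 1.50 in SW620, and miR-5000-5p at -1.26 in Lovo and 1.46 in SW620. miR-1827 lay at -1.42 in Lovo and 1.00 in HT29, and miR-4639-3p at -1.69 in Lovo and 1.33 in HT29. The contrast of miR-4329, miR-5000-5p and miR-1827 had an adjusted p of 0.845 each from limma, and that of miR-4639-3p an adjusted p of 0.744.

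The arrays also carry 23 probes for other small RNAs, of which 15 were detected on both Lovo arrays, with a median difference of 0.44 over these 15. At least 2-fold higher in Lovo knockdown were SNORD3@, a small nucleolar RNA that takes part in ribosomal RNA cleavage, with signals of 13626.5 and 2100.5 (2.90; -0.15 in SW620 and -2.73 in HT29), and SNORD48, often used as a reference RNA, with 662 and 166.5 (1.02). No such probe detected on both arrays was at least 2-fold lower, with 5S_rRNA at -0.91 and RNU6-1_RNU6-2 at -0.80 (556 in knockdown and 1248 in control). RNU6-1 was detected in control only, with signals of 9.5 and 149.5 and a normalised difference of -1.04.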

How the results depend on the processing

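The 25 higher and 26 lower miRNAs became 84 and 57 with the deposited value table, 97 and 80 with plain background subtraction, 52 and 17 with spike control scaling and 82 and 56 at 1.5-fold. With a normexp offset of 0, 38 were higher, and without normalisation between arrays 44 were lower. The cause of these moves was not tested, apart from the looser threshold, which admits more miRNAs. The remaining settings gave 17 to 28 higher and 21 to 34 lower. The median of all 408 differences moved by 0.25 with spike control scaling, -0.25 without normalisation, 0.12 with plain subtraction and 0.11 with the value table. The contrast against the other lines called 1 miRNA with median scaling (miR-141-3p, not detected in those lines) and 0 in its other settings, among them a fit without miR-5100, to which quantile normalisation gives the same value on every array, added after seeing the data (0 of 569, 24 at an unadjusted p under 0.05 from limma). Of the alternatives for named miRNAs 296 stayed within the spread of the spots and 110 moved beyond it, and of those for list medians 158 stayed and 26 moved; no difference past 2-fold changed sign. With the median over spots miR-22-3p lay at -0.95 and so no longer passed 2-fold. Knockdown and control were paired by cell line, as a block, in the contrast. The labels give no replicate numbers to pair by, and leaving out a replicate would leave no Lovo difference. Values near the detection minimum, such as the knockdown signals of miR-125b-5p and miR-193a-3p, limit the size of their differences.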

Other observations

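Across the 349 miRNAs with a RefSeq sequence, the Lovo difference had medians of -0.14 for those with under 40% G and C (n = 59), -0.05 from 40% to 50% (n = 115), 0.15 from 50% to 60% (n = 96) and 0.38 at 60% or more (n = 79). Pearson's r with the G and C share was 0.17 and Spearman's rho 0.26, as a description across miRNAs of 1 pair of arrays, which share labelling and scan. In SW620 and HT29 the same r was -0.07 (n = 264) and 0.00 (n = 239). By first base the medians were 0.35 for G (n = 40) and 0.01 for U (n = 136).

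The brightest human probe of both Lovo arrays was miR-5100, at 26678.5 on the knockdown array and 29852 on the control array, which is 11.2% and 11.7% of all human signal. miR-1246 (6967 and 9018.5) and miR-4454 (4826 and 9175.5) were among the 5 brightest on each array and lay at -0.26 and -0.53.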
